A study of Homo sapiens with 6 samples.

Results

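The hypoxia-inducible factors and 8 of their known target genes were followed in MiaPaCa2-CasRx cells, human pancreatic cancer cells engineered with CasRx, a Cas13d enzyme that a guide RNA directs to cut transcripts. The 10 genes were HIF1A, EPAS1, VEGFA, CA9, ANGPTL4, NDRG1, BNIP3, ADM, EGLN3 and PDK1, chosen by name as the table's row of each symbol, out of 42381 gene rows of which 25060 held a count. The 3 control libraries came from cells with CasRx and no guide RNA, and the 3 knockdown libraries from cells that also received, by lentivirus, a guide against PPP2R1A, the scaffold subunit of protein phosphatase 2A (PP2A). The labels call the controls WT and the others KD, and the line received CasRx from a transposon. The cultures were seeded in 6-well plates and taken below confluence, and the labels name no change of oxygen in either group. As the study's methods describe them, the control cells hold no guide vector, so the vector and the loss of PPP2R1A cannot be told apart.

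The HIF α subunits HIF-1α (gene HIF1A) and HIF-2α (EPAS1) are transcription factors that cells make constantly and, in the presence of oxygen, destroy. Prolyl hydroxylases, the products of EGLN1, EGLN2 and EGLN3, use oxygen to mark them for the ubiquitin ligase that contains VHL. At low oxygen the α subunits persist, pair with ARNT and bind hypoxia response elements, whose core reads ACGTG or GCGTG. Their targets include secreted factors that act on vessels (VEGFA, ADM and ANGPTL4), a carbonic anhydrase of the cell surface (CA9), a kinase that turns pyruvate away from mitochondria (PDK1), a mitophagy receptor (BNIP3), the stress-response gene NDRG1 and, as negative feedback, EGLN3. HIF proteins are controlled mainly through their stability, which mRNA counts do not measure.

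The 250 bases before the RefSeq start of 4 of the genes are shown on the coding strand of build GRCh38.p14, with each core motif in capitals, whether it lies on this strand or on the other, where it reads as its reverse complement. They are ADM, the gene that rose most among those that passed the test, EGLN3, which was near 0 in the controls, ANGPTL4, which stood apart in 1 control library, and CA9, which had no count. The windows lie at chr11:10304823-10305072 on the plus strand (ADM), chr14:33951075-33951324 on the minus strand (EGLN3), chr19:8363905-8364154 on the plus strand (ANGPTL4) and chr9:35673678-35673927 on the plus strand (CA9).
ADM: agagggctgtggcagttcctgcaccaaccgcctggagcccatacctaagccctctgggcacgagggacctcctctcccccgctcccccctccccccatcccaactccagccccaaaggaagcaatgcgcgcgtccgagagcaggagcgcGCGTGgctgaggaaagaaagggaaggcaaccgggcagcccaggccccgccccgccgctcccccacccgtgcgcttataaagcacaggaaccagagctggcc
EGLN3: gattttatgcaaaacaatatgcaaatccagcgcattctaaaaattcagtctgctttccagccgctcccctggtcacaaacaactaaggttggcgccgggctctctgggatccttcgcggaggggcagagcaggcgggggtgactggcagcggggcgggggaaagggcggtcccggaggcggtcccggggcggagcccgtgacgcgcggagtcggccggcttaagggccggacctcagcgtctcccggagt
ANGPTL4: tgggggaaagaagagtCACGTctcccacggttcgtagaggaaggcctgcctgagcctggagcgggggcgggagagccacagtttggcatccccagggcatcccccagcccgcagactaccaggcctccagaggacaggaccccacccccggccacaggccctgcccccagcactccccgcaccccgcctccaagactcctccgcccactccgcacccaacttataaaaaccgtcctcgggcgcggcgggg
CA9: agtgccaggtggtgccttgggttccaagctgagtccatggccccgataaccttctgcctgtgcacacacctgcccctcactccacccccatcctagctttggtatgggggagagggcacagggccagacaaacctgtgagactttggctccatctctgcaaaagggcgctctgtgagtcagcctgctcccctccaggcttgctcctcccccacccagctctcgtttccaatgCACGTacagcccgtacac

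ADM holds 1 GCGTG that begins 101 bases before the start, and ANGPTL4 and CA9 each hold 1 ACGTG on the reverse strand, 234 and 18 bases before it. EGLN3 holds neither motif in this window. Promoters of 8 of the 10 genes were matched in the RefSeq table, HIF1A and PDK1 with 2 starts each. BNIP3 had 6 matches, among them an ACGTG on each strand that overlap in 1 palindrome, the second start of PDK1 had 2, and EPAS1 and the first start of HIF1A had 1 each, while the other start of each of these 2-start genes had none. At least 1 motif stands in 43.2% of the 35116 windows of this length in the table, and ACGTG in 18.5% of them, so a match by itself does not set these genes apart. The match describes letters and not binding.

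The libraries held 28499214 to 45040033 gene counts each. PPP2R1A, the targeted gene, stood at 590, 624 and 648 CPM (reads of the gene relative to a common library total, scaled by edgeR's TMM method) in the controls, at 143 CPM in both knockdowns 1 and 2, and at 545 CPM in the library labelled knockdown 3. The last library therefore goes against its label, and the study left the third knockdown sample out for its weaker knockdown. The first comparison takes controls 1 and 2 against knockdowns 1 and 2, a second takes all 6 libraries, and the third asks whether the difference at number 3 departs from that at numbers 1 and 2. Both groups share these numbers, and the library names and the study's account of sampling over successive weeks tie them to time points, number 3 being the latest and of higher passage. Time, passage and the weaker knockdown therefore cannot be told apart in the library labelled knockdown 3. Control 3 holds no guide, and there time and passage cannot be told apart. Of the markers of a pancreatic line, VIM was high throughout but lower in knockdowns 1 and 2 (mean 4250 CPM) than in controls 1 and 2 (8645 CPM). The keratins moved with the same groups, KRT8 from 836 to 5334 CPM and KRT18 from 631 to 3340 CPM upward, and KRT19 from 44.6 to 13.7 CPM downward. Control 3 stood above controls 1 and 2 for all of these keratins, at 2417 CPM of KRT8, 1565 CPM of KRT18 and 77.6 CPM of KRT19. Of the other mesenchymal markers, ZEB1 was lower in knockdowns 1 and 2 (47.8 to 34.7 CPM) and FN1, at a low level, was higher (0.69 to 1.00 CPM). EPCAM and CDH1, which define epithelial cells, had at most 6 counts in any library. The summed level of 6 ductal and epithelial markers was 1386 to 4061 CPM in the 3 controls and 1367 to 9297 CPM in the 3 knockdown libraries, and that of 4 mesenchymal markers, with CDH2 at 0, was 7400 to 10671 CPM and 3779 to 8587 CPM. Of the leukocyte markers PTPRC and CD3E were at 0, of the endothelial ones PECAM1 and TEK, and the 3 endothelial markers summed to 0 to 2.96 CPM in controls and 3.63 to 59.1 CPM in knockdowns, all of it CDH5. The leukocyte markers summed to at most 3.09 CPM and the fibroblast markers to at most 0.21 CPM in any library. The part of these shifts in the results was not tested. In bulk RNA fewer expressing cells and less RNA per cell cannot be told apart.

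Across 15596 tested genes, 1115 were higher (7.15%) and 999 lower (6.41%) in knockdowns 1 and 2 than in controls 1 and 2, at an adjusted p under 0.05. Scaled by library size alone the split was 1406 higher and 744 lower, and the median log2 fold change of all genes moved from 0.01 to 0.15. Of the 10 hypoxia genes 9 could be tested. ADM rose and VEGFA fell, and the other 7 did not pass. With the number as a replicate block no gene of the table passed. EGLN3 entered the test only through its counts in the knockdown libraries. The median log2 fold change of the 9 genes was 0.18, and 0.10 without EGLN3.

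**Figure D1:**
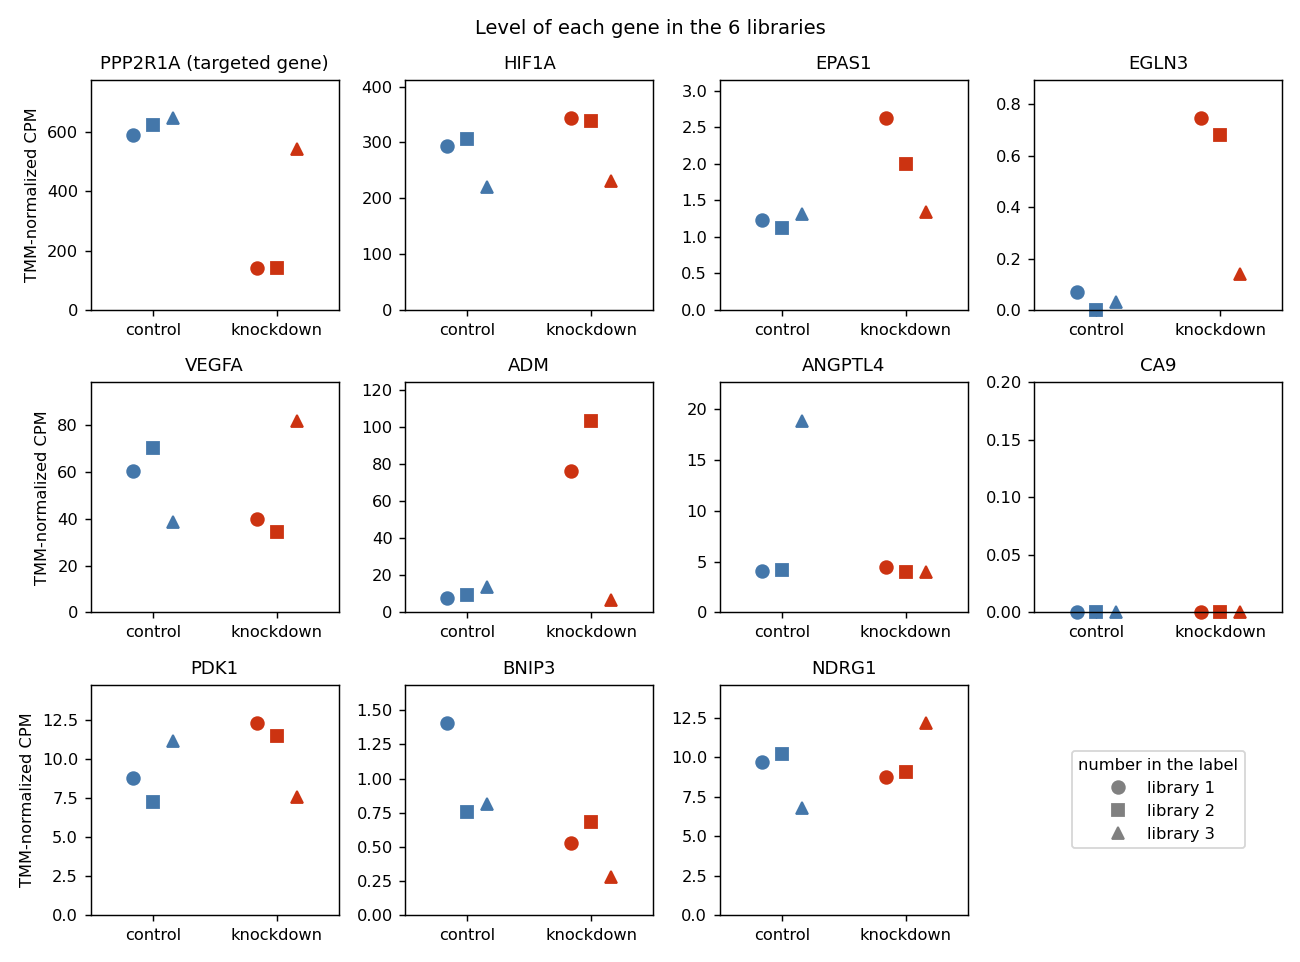
Level of the targeted gene PPP2R1A and of the 10 hypoxia genes, in TMM-normalized CPM on a linear axis from 0 with its own scale in each panel, 1 point per library (blue control, red knockdown, the marker shape gives the number in the label). ADM stands at 76.4 and 103 CPM in knockdowns 1 and 2 and at 6.61 to 13.5 CPM elsewhere, ANGPTL4 stands apart in control 3 at 18.8 CPM, and CA9 lies at 0 throughout.

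ADM encodes adrenomedullin, a secreted peptide that widens vessels and acts through the receptor CALCRL with RAMP proteins. Its level was 8.02, 9.58 and 13.5 CPM in controls 1, 2 and 3 and 76.4, 103 and 6.61 CPM in knockdowns 1, 2 and 3. Knockdowns 1 and 2 lay far above every control, and the library labelled knockdown 3 lay below them all. The mean was 8.80 ± 1.10 CPM (SD, n = 2) in controls 1 and 2 and 89.9 ± 19.1 CPM (SD, n = 2) in knockdowns 1 and 2, a log2 fold change of 3.34 (standard error 0.22, edgeR adjusted p = 0.0133), or 10.1-fold. Measured against the 100 nearest genes along chromosome 11, ADM was still higher by 3.18 (adjusted p = 0.0139). With any 1 of the 4 libraries left out, its log2 fold change was 3.12 to 3.55 and its adjusted p 0.0529 to 0.0717, where no gene of the table passed. With the replicate block ADM had 3.33 (adjusted p = 0.0630) and did not pass either. Of the other genes of adrenomedullin signalling only ACKR3, a receptor that takes up the peptide, could be tested, with a log2 fold change of -0.26 (adjusted p = 0.296). The receptor CALCRL had 1 count in controls 1 and 2 together and 32 in knockdowns 1 and 2, a ratio of 21.6 (95% exact counting interval 3.61 to 881), and was not tested. These 4 libraries held no count of RAMP1, RAMP2 or RAMP3. CALCRL reached at most 0.55 CPM in any library and had no count in the library labelled knockdown 3.

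VEGFA, the growth factor of endothelial cells, moved the other way. Its level was 60.5, 70.5 and 38.7 CPM in controls 1, 2 and 3 and 39.9, 34.2 and 82.0 CPM in knockdowns 1, 2 and 3. The 2 pairs did not overlap, but control 3 lay with knockdowns 1 and 2, and the library labelled knockdown 3 was the highest of all. The mean was 65.5 ± 7.05 CPM (SD, n = 2) in controls 1 and 2 and 37.0 ± 4.04 CPM (SD, n = 2) in knockdowns 1 and 2, a log2 fold change of -0.83 (standard error 0.15, edgeR adjusted p = 0.0452). The call stood close to the threshold. It was lost when library size alone set the scale (adjusted p = 0.0591), without the filter on low counts (0.0592), and with any 1 library left out (0.0929 to 0.184), as every call was. The replicate block ended it too (adjusted p = 0.0995). The 100 nearest genes on chromosome 6 were themselves lower by a median of 0.33 on the log2 scale, and against them the value for VEGFA was -0.50 (adjusted p = 0.135).

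The other genes of the VEGF family were tested beside it. Of 7 tested of 10, 3 rose, 1 fell (VEGFA) and 3 did not pass, with a median log2 fold change of 0.71 beside 0.01 over all genes. For this list and those below, the shares over all tested genes were 7.15% higher and 6.41% lower. FLT1 and NRP2, which make 2 of the 3 rises, entered the test only through their counts in the knockdown libraries, and without them the median of the other 5 was 0.22. FLT1, a receptor of VEGFA and PGF, had no count in the 3 controls, 373 and 804 counts in knockdowns 1 and 2 and 2 counts in the library labelled knockdown 3. Against a floor of 3 counts over controls 1 and 2 it was at least 265-fold higher. NRP2, a coreceptor, had 9, 0 and 0 counts in controls 1, 2 and 3 and 2815, 3750 and 0 in knockdowns 1, 2 and 3, a ratio of 493 over the first 2 numbers (95% exact counting interval 260 to 1079). PGF, a ligand of FLT1, rose by 1.10 (adjusted p = 0.0479, and 0.0734 against its neighbours). Its level in the library labelled knockdown 3, 4.22 CPM, lay within the controls (1.38 to 4.57 CPM). For NRP1, the other neuropilin, the log2 value was 0.71 (adjusted p = 0.247).

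ANGPTL4, a secreted inhibitor of lipoprotein lipase, showed no difference that could be detected in the first comparison. Its level was 4.05, 4.14 and 18.8 CPM in controls 1, 2 and 3 and 4.42, 3.94 and 4.01 CPM in knockdowns 1, 2 and 3. A single library, control 3 with 602 counts, stood above the other 5, which held 115 to 185 counts. The log2 fold change over numbers 1 and 2 was 0.02 (standard error 0.19, edgeR adjusted p = 0.950). No other member of the ANGPTL family had enough counts to be tested in the first comparison.

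Neither HIF α subunit passed the test. HIF1A was at 293, 307 and 221 CPM in controls 1, 2 and 3 and at 344, 339 and 231 CPM in knockdowns 1, 2 and 3. Both libraries numbered 3 were below the other 4, and within numbers 1 and 2 the knockdown libraries were higher. The mean was 299.9 ± 9.36 CPM (SD, n = 2) against 341 ± 3.07 CPM (SD, n = 2), a log2 fold change of 0.18 (standard error 0.08, adjusted p = 0.224). Against the 100 nearest genes of chromosome 14 it was 0.03 (adjusted p = 0.864). HIF1A shares its assembled locus with SNAPC1, and how reads were divided between them is not given in the sources used here.

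EPAS1 had few reads, 31 to 95 counts per library. Its level was 1.23, 1.12 and 1.31 CPM in controls 1, 2 and 3 and 2.62, 2.00 and 1.34 CPM in knockdowns 1, 2 and 3. Every knockdown library stood above every control, the library labelled knockdown 3 by a narrow margin. The log2 fold change over numbers 1 and 2 was 0.97 (standard error 0.26, edgeR adjusted p = 0.0931), which did not pass.

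Of the 7 tested genes of HIF subunits and coactivators, 1 rose, 1 fell and 5 did not pass, with a median log2 fold change of 0.11. ARNT2, a relative of ARNT that can pair with HIF α subunits, was at 0.63, 1.30 and 0.13 CPM in controls 1, 2 and 3 and at 11.6, 11.2 and 0.37 CPM in knockdowns 1, 2 and 3, a log2 fold change of 3.55 over numbers 1 and 2 (adjusted p = 0.0255). CITED2, which competes with HIF-1α for the coactivators CBP and p300, was at 70.7, 85.9 and 226 CPM in the controls and at 14.8, 20.4 and 76.2 CPM in the knockdown libraries. It fell by 2.16 on the log2 scale (adjusted p = 0.0217). For ARNT itself the log2 value was -0.74 (adjusted p = 0.152), and for the coactivator CREBBP it was -0.38 (adjusted p = 0.164).

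Among the prolyl hydroxylases of the HIF pathway EGLN1 fell and EGLN3, near 0 in the controls, did not pass. EGLN3 had 2, 0 and 1 counts in controls 1, 2 and 3 and 27, 32 and 6 counts in knockdowns 1, 2 and 3. All 3 knockdown libraries had more than any control, at 0.14 to 0.75 CPM against 0 to 0.07 CPM. Over numbers 1 and 2 the ratio was 19.9 (95% exact counting interval 5.28 to 168), and edgeR's adjusted p was 0.0534, just short of the threshold. DESeq2 gave 0.0189, and edgeR under the other alternatives 0.0524 to 0.216. Over 6 libraries EGLN3 was too low to be tested.

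EGLN1, the main prolyl hydroxylase of HIF-1α in most cells, was at 236, 251 and 125 CPM in controls 1, 2 and 3 and at 87.9, 93.4 and 227 CPM in knockdowns 1, 2 and 3. Over numbers 1 and 2 it fell by 1.43 on the log2 scale (adjusted p = 0.0130, with a standard error of 0.09). As for VEGFA, control 3 was nearer to knockdowns 1 and 2, and the library labelled knockdown 3 was nearer to controls 1 and 2. Of 12 tested genes of oxygen sensing and HIF degradation, 1 rose, 3 fell and 8 did not pass, with a median of -0.06, or -0.10 without EGLN3 and P4HTM, which passed the filter only through the knockdown libraries. HIF1AN, the asparaginyl hydroxylase that blocks coactivator binding, fell by 0.61 (adjusted p = 0.0313, and 0.133 against its neighbours), and SIAH2, a ubiquitin ligase that degrades prolyl hydroxylases, fell by 0.90 (adjusted p = 0.0328). P4HTM, a transmembrane prolyl hydroxylase, had 0, 0 and 83 counts in controls 1, 2 and 3 and 109, 123 and 3 counts in knockdowns 1, 2 and 3, at least 52.3-fold higher over numbers 1 and 2 and again with control 3 on the side of the knockdown libraries.

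**Figure D2:**
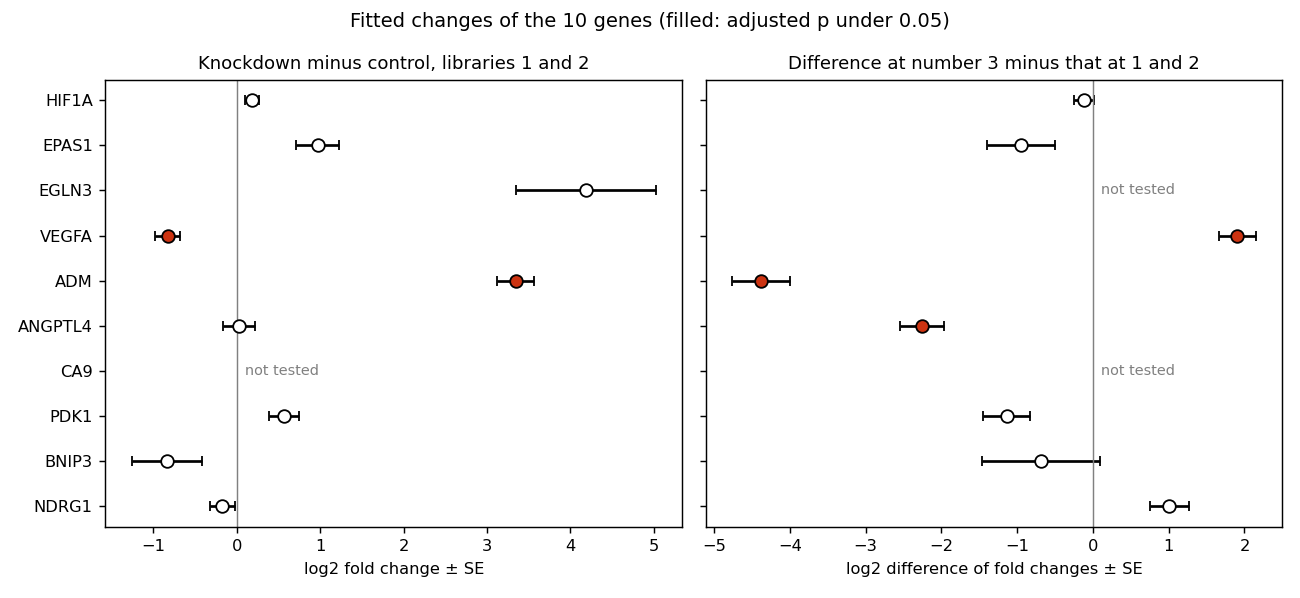
Fitted log2 changes of the 10 genes with standard errors, left for knockdowns 1 and 2 against controls 1 and 2 and right for the difference at number 3 minus that at numbers 1 and 2, filled where edgeR's adjusted p was under 0.05. ADM (3.34 and -4.38) and VEGFA (-0.83 and 1.91) lie on opposite sides of 0 in the left and right panels, and CA9 in both panels and EGLN3 in the right were not tested.

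CA9, the carbonic anhydrase often used as a marker of HIF activity, had 0 counts in all 6 libraries. At these depths a count of 0 allows a level of up to 0.0639 to 0.108 CPM (3 counts per library), so no fold can be given. Of 5 tested genes of acid and lactate export, 1 rose, 1 fell and 3 did not pass, with a median log2 fold change of -0.16. CA12, another carbonic anhydrase of the cell surface, rose by 1.83 (adjusted p = 0.0342, and 0.0521 against its neighbours). SLC16A1, the lactate transporter MCT1, fell by 0.74 (adjusted p = 0.0336, and 0.154 against its neighbours). The library labelled knockdown 3 lay within the controls for CA12 (1.52 CPM against 1.22 to 2.34 CPM). It lay below them for SLC16A1 (279 CPM against 288 to 330 CPM). For SLC16A3, the lactate exporter MCT4, the log2 value was -0.63 (adjusted p = 0.0754), and for its chaperone BSG -0.16 (adjusted p = 0.292).

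PDK1, the kinase that inhibits pyruvate dehydrogenase, was at 8.76, 7.24 and 11.2 CPM in controls 1, 2 and 3 and at 12.3, 11.5 and 7.52 CPM in knockdowns 1, 2 and 3. Knockdowns 1 and 2 were above all controls, narrowly so for control 3, and the library labelled knockdown 3 lay within the controls. The log2 fold change over numbers 1 and 2 was 0.56 (standard error 0.18, edgeR adjusted p = 0.125). Of 9 tested genes of pyruvate dehydrogenase control, 1 rose, none fell and 8 did not pass, with a median of 0.38. PDK3, another kinase of this family, rose by 1.17 (adjusted p = 0.0236), with the library labelled knockdown 3 at 14.8 CPM, within the controls (9.32 to 18.2 CPM). PDHA1, a subunit of the enzyme itself, had -0.42 (adjusted p = 0.0542), and the phosphatases PDP1 and PDP2 had 0.49 and 1.88 (adjusted p = 0.223 and 0.233).

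Genes of glucose uptake and glycolysis that HIF-1 is known to activate were lower or did not pass. Of 19 tested, none rose, 4 fell and 15 did not pass, and the median log2 fold change was -0.40 beside 0.01 over all genes. Not every gene of the list was lower in knockdowns 1 and 2. Among those that did not pass, the mean of SLC2A3 was 18.2 CPM there and 4.84 CPM in controls 1 and 2. The same means were 1046 and 471 CPM for TPI1, and 5.52 and 2.14 CPM for ALDOC. Control 3 stood at 19.1 CPM of SLC2A3 and 1016 CPM of TPI1. SLC2A1, the glucose transporter GLUT1, was at 161, 164 and 162 CPM in controls 1, 2 and 3 and at 66.6, 64.7 and 155 CPM in knockdowns 1, 2 and 3. It fell by 1.31 on the log2 scale (adjusted p = 0.0137, with a standard error of 0.09), and all 3 controls lay above all knockdown libraries. The hexokinases HK1 and HK2 fell by 0.79 and 0.74 (adjusted p = 0.0231 and 0.0268), and GPI, the next enzyme of glycolysis, fell by 0.59 (adjusted p = 0.0326). Against their neighbours along the chromosomes HK1 (adjusted p = 0.0800) and GPI (0.305) did not pass, while HK2 (0.0312) and SLC2A1 (0.0266) did.

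BNIP3, a receptor of mitophagy in the outer mitochondrial membrane, had 12 to 40 counts per library. Its level was 1.41, 0.76 and 0.81 CPM in controls 1, 2 and 3 and 0.52, 0.68 and 0.28 CPM in knockdowns 1, 2 and 3. All knockdown libraries were below all controls, but knockdown 2 and control 2 were close. The log2 fold change over numbers 1 and 2 was -0.84 (standard error 0.42, edgeR adjusted p = 0.261). Its relative BNIP3L, also a mitophagy receptor, was at 36.1, 37.4 and 73.1 CPM in controls 1, 2 and 3 and at 72.0, 69.1 and 37.5 CPM in knockdowns 1, 2 and 3. BNIP3L rose by 0.93 over numbers 1 and 2 (standard error 0.10, adjusted p = 0.0217), with control 3 at the level of knockdowns 1 and 2 and the library labelled knockdown 3 at that of controls 1 and 2. Of 6 tested genes of mitophagy and mitochondria, BNIP3L alone rose, none fell and 5 did not pass, with a median of 0.25. LONP1, a mitochondrial protease, had 0.95 (adjusted p = 0.0524), and against its neighbours 0.98 (adjusted p = 0.0421), which passed. HIGD1A and FAM162A, mitochondrial proteins induced by hypoxia, had 0.36 and 0.14 (adjusted p = 0.101 and 0.404).

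NDRG1, a cytoplasmic protein induced by hypoxia and other stress, was at 9.71, 10.2 and 6.79 CPM in controls 1, 2 and 3 and at 8.73, 9.06 and 12.2 CPM in knockdowns 1, 2 and 3. Knockdowns 1 and 2 lay inside the range of the controls and the library labelled knockdown 3 above it. The log2 fold change over numbers 1 and 2 was -0.17 (standard error 0.15, edgeR adjusted p = 0.501). Of the 4 genes of this family NDRG4 alone passed, rising by 1.09 (adjusted p = 0.0421, and 0.0659 against its neighbours), and NDRG2 and NDRG3 had 0.50 and 0.16 (adjusted p = 0.126 and 0.305). NDRG4 was highest in control 3, at 11.7 CPM, against 7.87, 6.84 and 6.09 CPM in knockdowns 1, 2 and 3.

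Of 27 further HIF targets tested of 32, 1 rose, 3 fell and 23 did not pass, with a median log2 fold change of -0.14, or -0.11 without PLOD2, which passed the filter only through the controls. P4HA1, a prolyl hydroxylase of collagen, fell by 1.33 (adjusted p = 0.0198), with the library labelled knockdown 3 at 49.8 CPM, within the controls (47.5 to 59.5 CPM). ERO1A, an oxidase of the endoplasmic reticulum that helps to form disulfide bonds, fell by 0.63 (adjusted p = 0.0365). For ERO1A control 3, at 73.5 CPM, lay with knockdowns 1 and 2 (73.3 and 80.0 CPM), and the library labelled knockdown 3 was highest (141 CPM). PLOD2, a lysyl hydroxylase of collagen, had 13, 21 and 0 counts in controls 1, 2 and 3 and 0, 0 and 33 counts in knockdowns 1, 2 and 3. It was at least 16.8-fold lower over numbers 1 and 2 and absent from control 3 as well. Its call (edgeR adjusted p = 0.0448) was lost against its neighbours (0.0568). BHLHE40, a transcriptional repressor of the clock and of hypoxia responses, was at 6.79, 12.2 and 18.6 CPM in the controls and at 42.6, 46.6 and 9.21 CPM in the knockdown libraries. It rose by 2.22 over numbers 1 and 2 (adjusted p = 0.0353, and 0.0537 against its neighbours). Of all tested genes 7.15% were higher and 6.41% lower. Over all 11 lists together, 99 of 126 genes were tested, of which 11 rose, 13 fell and 75 did not pass. Their median log2 fold change was -0.02. Against the 100 nearest genes 8 were higher and 8 lower. Without the 5 genes that had at most 9 counts in 1 group, a choice made after seeing the data, 8 rose and 12 fell of 94, with a median of -0.05. With FLT1, P4HTM and PLOD2 set at their bounds the medians of their lists stay as given, since these genes lie at the ends of the lists.

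**Figure D3:**
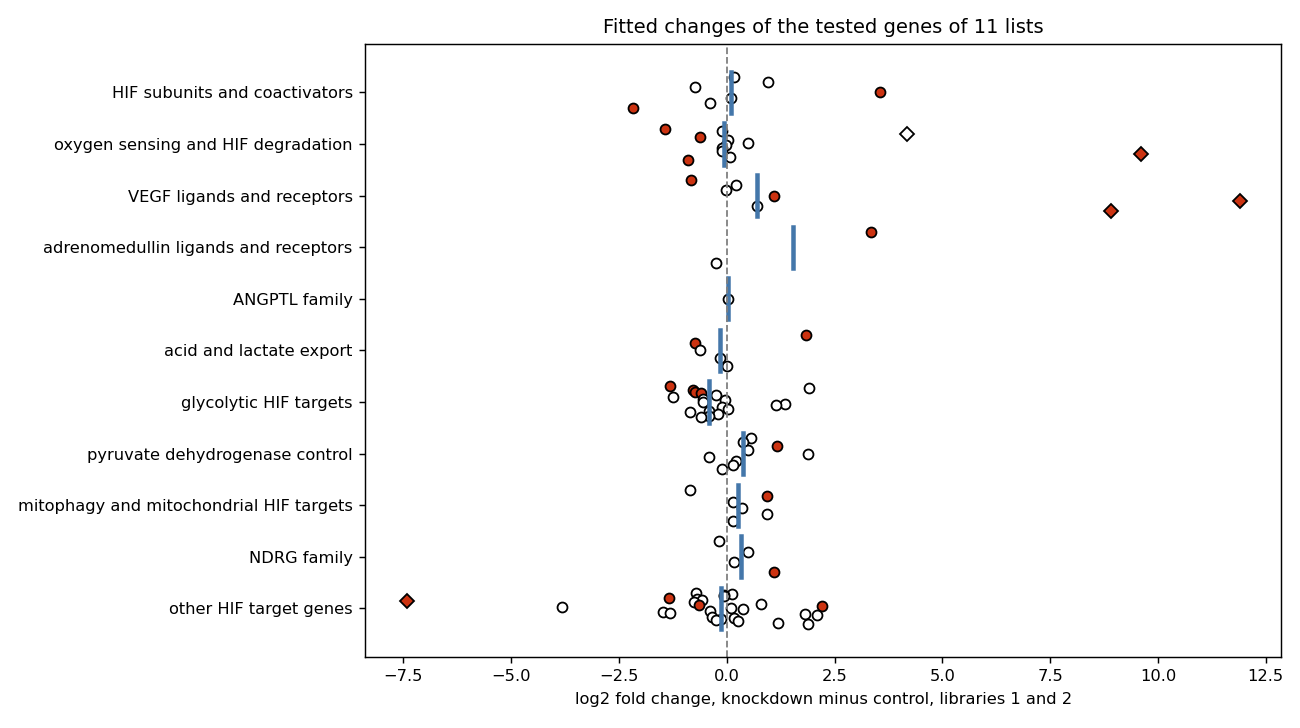
Fitted log2 fold change of each tested gene of the 11 lists in knockdowns 1 and 2 against controls 1 and 2, filled red where edgeR's adjusted p was under 0.05, with each list's median as a blue bar and the median of all genes (0.01) as a dashed line. Diamonds mark genes with at most 9 counts in 1 group, whose fitted values are not bounds. The glycolytic targets have a median of -0.40 and the VEGF ligands and receptors one of 0.71, or 0.22 without FLT1 and NRP2.

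Over all 6 libraries edgeR called 1 of 15386 genes (0.0065%) and none of the 8 hypoxia genes tested. At an unadjusted p under 0.05 ADM alone stood out, and DESeq2 called none of 9. The log2 fold change was 2.58 for ADM (standard error 0.91, adjusted p = 0.581), VEGFA had one of -0.12 (standard error 0.40, adjusted p = 0.923) and ANGPTL4 one of -1.13 (standard error 0.65, adjusted p = 0.596), which was 0.003 without control 3. Without the library labelled knockdown 3, ADM passed with 3.11 (adjusted p = 0.0173) and VEGFA did not, with -0.61 (adjusted p = 0.283). The 3 controls and the 3 knockdown libraries did not overlap for EPAS1 and EGLN3, which were higher in the knockdown, and for BNIP3, which was lower. Of all genes tested, 7.41% were higher and 6.56% lower without overlap, and of the 8 hypoxia genes tested 1 was higher (EPAS1) and 1 lower (BNIP3).

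The difference between knockdown and control at number 3 was then set against that at numbers 1 and 2, with the single libraries of number 3 assumed to vary like the rest. Over 15386 genes this interaction was positive for 362 (2.35%) and negative for 337 (2.19%). Of 8 hypoxia genes tested it was positive for VEGFA (1.91, standard error 0.25, edgeR adjusted p = 0.0450), negative for ADM (-4.38, standard error 0.38, adjusted p = 0.0331) and ANGPTL4 (-2.26, standard error 0.29, adjusted p = 0.0446), and did not pass for 5. For ADM and VEGFA knockdown exceeded control in one set and fell short of it in the other, while ANGPTL4 differed only at number 3, where control 3 had 18.8 CPM and the library labelled knockdown 3 had 4.01 CPM. NDRG1 had 1.01 (adjusted p = 0.105) and PDK1 -1.14 (adjusted p = 0.115). With any 1 of the libraries numbered 1 and 2 left out none of the 3 passed, at an adjusted p of 0.0653 to 0.0924 for ADM, 0.0980 to 0.134 for VEGFA and 0.108 to 0.145 for ANGPTL4. With the replicate block it was 0.0955 for ADM, 0.101 for VEGFA and 0.0964 for ANGPTL4, and no gene passed. This comparison shares its libraries with the other comparisons and is not independent of them.

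The genes whose level followed that of each HIF subunit most closely over the 6 libraries were ranked by Pearson's r of log2 CPM, among 10685 genes for HIF1A and 10686 for EPAS1 with a mean of at least 5 CPM. HIF1A was followed by MTND4P12 (r = 0.999), a pseudogene that resembles a mitochondrial gene and may share its reads, YIPF2 (0.993) and PIGN (0.987). EPAS1 was followed by ULK3 (0.995), MRC2 (0.995) and FRG1HP (0.988), a pseudogene as well. With 6 points, which share library and depth, and so many genes compared, values of this size describe these libraries only.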

How the data were processed

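RNA from 3 control and 3 knockdown cultures was sequenced, and the authors deposited whole-number counts per gene, made with FastQC, STAR and StringTie per the labels. For versions, settings, strand, genome build and annotation, all not given in the sources used here, no assumption was made, so reads of overlapping or antisense genes cannot be told apart. All value columns were used. Of 42540 rows, 159 exact repeats (at most 0.102% of a library's counts) were left out.

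Tests on counts used edgeR 4.0.16 under R 4.3.3 (filterByExpr by group, TMM scaling, quasi-likelihood F test, two-sided) and adjusted over all tested genes by the Benjamini-Hochberg procedure, with calls at 0.05. The standard error is the absolute log2 fold change divided by the root of F. DESeq2 1.42.0, RLE factors, library size alone, no filter, a replicate block, each library left out and the median of the 100 nearest genes as an offset were the alternatives. Tables were made with pandas 2.3.3, numpy 2.4.6 and Python 3.11.15. The fits were also run on simulated counts, with the same added spread between libraries for every gene and no effect of time or passage. That run does not measure how reliable the calls are in these libraries.

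The 10 genes and the 11 lists were chosen with earlier results of these data known. The text names the 10 genes, PPP2R1A, up to 4 other genes of each list with the smallest p and the 3 genes most like each HIF subunit. CALCRL, the RAMP genes, SLC2A3, TPI1 and ALDOC were named after their values were seen. Bounds use 3 counts as the floor (per group for folds, per library for CA9) with effective library sizes, and, like the intervals, cover counting error alone. The spread behind each p-value is that between libraries and may be partly technical. The study describes a stable knockdown made with a single guide, and calls its samples, taken over successive weeks, independent replicates. It does not state separate transductions, so the p-values may not cover differences between separately made knockdown lines. The library names give both groups the same numbers, which the study's account ties to time points, though the labels state no shared day. Deviations of same-numbered libraries from their group means had correlations of -0.0182, -0.0324 and -0.122 over 15386 genes. The knockdown mean includes the library labelled knockdown 3 with its weaker knockdown, so these correlations cannot decide whether a number carries a shared effect. The main fits leave the number out, and the block for it is an alternative, given beside the calls it ends. Promoter windows are RefSeq's.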

Additional observations from a re-analysis of the deposited data

Results flagged for a closer look

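The following genes were flagged because the difference between knockdown and control at number 3 departed from that at numbers 1 and 2 in edgeR's interaction test. Groups of 3 were not searched for samples that stand apart. PPP2R1A itself had an interaction of 1.84 in log2 units (adjusted p = 0.0256, with a standard error of 0.14), since the library labelled knockdown 3 held 545 CPM of it against 143 CPM in knockdowns 1 and 2.

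Among the hypoxia genes the interaction was -4.38 for ADM (adjusted p = 0.0331), 1.91 for VEGFA (adjusted p = 0.0450) and -2.26 for ANGPTL4 (adjusted p = 0.0446). Of the other named genes, the prolyl hydroxylase EGLN1 had 2.29 (adjusted p = 0.0250), the glucose transporter SLC2A1 had 1.25 (adjusted p = 0.0404), the oxidase ERO1A had 1.56 (adjusted p = 0.0400) and the mitophagy receptor BNIP3L had -1.91 (adjusted p = 0.0325). P4HTM had a fitted -14.79 (adjusted p = 0.0338), which is no bound, since 3 of its 6 libraries held 0 to 3 counts. Control 3 had 125 CPM of EGLN1 against 236 and 251 CPM in controls 1 and 2, and 73.1 CPM of BNIP3L against 36.1 and 37.4 CPM. For SLC2A1 control 3 stood at 162 CPM beside 161 and 164 CPM, so there the departure lay in the library labelled knockdown 3, at 155 CPM. What sets control 3 and the library labelled knockdown 3 apart was not tested.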

How the results depend on the processing

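In the comparison of numbers 1 and 2 the 2114 calls became 3294 with DESeq2, 1380 without the filter on low counts, 1222 against the 100 nearest genes and 0 with a replicate block (smallest adjusted p 0.0630, 5162 genes at an unadjusted p under 0.05). They ranged from 0 to 0 with any 1 library left out, where 1 residual degree of freedom remains. The 2 calls among the hypoxia genes became 1 with library size alone, without the filter and against the nearest genes (ADM each time), 0 with the replicate block and 0 to 0 with a library left out. Under the block ADM kept a log2 fold change of 3.33 (adjusted p = 0.0630) and VEGFA -0.83 (adjusted p = 0.0995). Over all 6 libraries the 1 call became 225 with DESeq2, 0 with the replicate block and 0 to 704 with a library left out, 704 being without knockdown 3, where 1 hypoxia gene (ADM) was called (range 0 to 1). The 699 interaction calls became 2192 with DESeq2, 378 without the filter, 379 against the nearest genes, 0 with the replicate block and 0 to 54 with a library left out, and the 3 hypoxia genes called became 1 without the filter (ADM), 0 with the block and 0 to 0 with a library left out. Over the 10 alternatives of the interaction ADM was called in 5, ANGPTL4 in 4 and VEGFA in 3. The causes were not tested.

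ANGPTL4 over all 6 libraries, at -1.13, turned to 0.003 without control 3 (range -1.483 to 0.003 with a library left out), so that value rested on this library. The other values that changed sign were at most 0.17 in size. For numbers 1 and 2 ANGPTL4 turned to -0.002 without control 1 and -0.057 without knockdown 1 (range -0.057 to 0.111 with a library left out). Over all 6 libraries HIF1A turned to -0.049, VEGFA to 0.038 and NDRG1 to -0.032 against the nearest genes. VEGFA turned to 0.066 without control 2, 0.039 without knockdown 1 and 0.108 without knockdown 2 (range -0.614 to 0.108), and NDRG1 to -0.004 without control 3 and -0.007 without knockdown 3 (range -0.007 to 0.272). Of the single-gene values under the alternatives, 74 of 90, 86 of 96 and 62 of 80 kept their sign and their side of the threshold in the comparisons of numbers 1 and 2, of all libraries and of the interaction. Depth limits EGLN3, BNIP3 and EPAS1 most, with 0 to 95 counts per library, and CA9 could not be tested.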
